A study of Fragaria x ananassa with 6 samples.

Results

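FaPLB and FaRGL1 are 2 strawberry genes that encode pectin-degrading lyases, and they were the only features with a pectin enzyme symbol on a custom oligonucleotide array. Their members were taken by symbol, leaving out control spots, which gave 2 of 35116 features and 14 of the 61657 non-control spots on each array. FaPLB encodes a pectate lyase and FaRGL1 a rhamnogalacturonate lyase. The array measured total RNA of floral buds of cultivated strawberry (Fragaria x ananassa). Control plants carried the empty vector and their buds were labelled normal in phenotype, while FaPRE1-OX plants carried FaPRE1 in pK7WG2, an overexpression vector with a constitutive promoter, and had elongated floral buds. Both groups came from Agrobacterium-transformed explants, and the plants were grown in a chamber and then in a greenhouse. There were 3 samples in each group, hybridised in pairs on 3 two-colour arrays of 1 slide that was scanned once, with 1 control and 1 FaPRE1-OX sample on each array. Per the labels the RNA of the samples came from independent buds. Neither the age of the buds nor the number of plants or transgenic lines behind the 3 samples of a group is given. The p-values cover the spread between bud samples, which in the fit with a dye term is only that between arrays 1 and 3. Whether this includes any spread between lines is not known.

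Pectin is the main gel-forming polysaccharide of the primary cell wall in strawberry and other dicots. Its smooth regions are chains of galacturonic acid (homogalacturonan), and its branched regions have a backbone of alternating rhamnose and galacturonic acid (rhamnogalacturonan I). Pectate lyases cut the first kind of chain after methylesterases have removed its methyl groups, and rhamnogalacturonan lyases cut the backbone of the second, both by beta-elimination. In strawberry both enzyme classes are best known from the ripening receptacle, where they take part in wall disassembly and fruit softening. Pectin is also remodelled in growing organs such as flowers. FaPRE1 is a PRE-type helix-loop-helix protein. Such proteins have no basic region for binding DNA, and in Arabidopsis they promote cell elongation.

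Of the 45 features with a gene symbol, 3 matched a list of pectin and cell wall enzymes (FaPLB, FaRGL1 and FaGalur) and 0 named a gene of floral organ identity, so the labelled tissue was not checked against markers. The targeted gene was higher in every FaPRE1-OX sample. The FaPRE1 log2 signal of controls 1, 2 and 3 was 6.09, 6.64 and 6.37, with 1 of the 3 well above background. FaPRE1-OX 1, 2 and 3 had 8.59, 8.74 and 8.04. The share of spots flagged by the scanner software as well above background was 57.7% to 67.4% over the samples, and 0 spots were saturated. FaPRE1-OX 3 stood apart from its group, with a Pearson correlation across tested genes of 0.959 and 0.958 to FaPRE1-OX 1 and 2. The correlation between FaPRE1-OX 1 and 2 was 0.996, and between controls it was 0.994 to 0.996. The fitted differences of FaPLB and FaGalur are therefore also given without the third array.

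FaPLB, the pectate lyase gene, was well above background in all 6 samples, as were 56.3% of all features, and had a higher signal in FaPRE1-OX buds than in control buds on all 3 arrays. Its normalized log2 signal was 8.40, 8.16 and 8.36 in controls 1, 2 and 3. It was 10.44, 10.56 and 10.09 in FaPRE1-OX 1, 2 and 3. The groups did not overlap, and FaPRE1-OX 3 was the lowest of its group. The group means were 8.30 ± 0.13 (SD, n = 3) in control and 10.37 ± 0.24 (SD, n = 3) in FaPRE1-OX. Of the features tested, 20.6% had every FaPRE1-OX level above every control level. Since it was called in every sample, FaPLB could be measured in both groups. The lowest signals called well above background were 5.76 to 6.09. They are not a detection limit, as FaPRE1 was not called at 6.64 in control 2. In bulk RNA of whole buds, more cells of a type and more RNA per cell cannot be told apart.

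**Figure D1:**
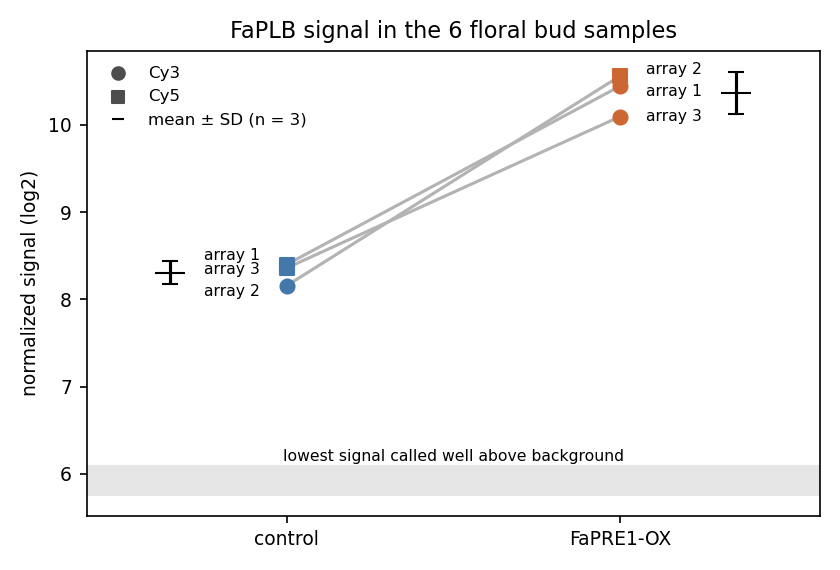
Normalized log2 signal of FaPLB in each control and FaPRE1-OX sample, with lines joining the samples of an array, circles for Cy3 and squares for Cy5, bars for the mean ± SD (n = 3), and a grey band for the range over samples of the lowest signal called well above background. The controls sit between 8.16 and 8.40 and the FaPRE1-OX samples between 10.09 and 10.56.

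The gene is represented by 1 probe, FragP00002636, spotted in duplicate at row 156, column 104 and at row 343, column 53. On array 1 the background-subtracted intensity of these spots was 502 and 399 in the control and 1271 and 1053 in FaPRE1-OX. On array 2 it was 150.2 and 124 in the control and 2592 and 2092 in FaPRE1-OX. On array 3 it was 333 and 236 in the control and 818 and 578 in FaPRE1-OX. In each sample both spots were well above background, and the spot in row 156 was 1.21 to 1.42 times as bright as the other. The FaPRE1-OX spot was the brighter one in all 6 pairs, and none of these spots carried an outlier flag.

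The raw contrast was largest on array 2, the only array with swapped dyes, so the dye and the array cannot be told apart. Over all spots the median intensity was 138 to 173.5 in the red Cy5 channel and 92.5 to 96.5 in the green Cy3 channel. The mean background-subtracted intensity in FaPRE1-OX was 2.58 times the control on array 1 and 2.45 times on array 3, where the control was in Cy5. It was 17.1 times the control on array 2, where the dyes were swapped. Comparisons within a dye avoid the difference between channels but run across arrays, and each uses a sample of array 2. In Cy3, FaPRE1-OX 1 and 3 were 8.47 and 5.09 times as bright as control 2. In Cy5, FaPRE1-OX 2 was 5.20 and 8.22 times as bright as controls 1 and 3. FaPLB was thus higher in FaPRE1-OX in both dyes.

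After normalization within each array the ratios lay closer together. The log2 ratio of FaPRE1-OX over control for FaPLB was 2.04 on array 1, 2.40 on array 2 and 1.74 on array 3, which are 4.12-fold, 5.29-fold and 3.33-fold. The ratio was largest on the array with swapped dyes and smallest on the array that held FaPRE1-OX 3. The ratios of the 2 spots were 2.01 and 2.08 on array 1, 2.50 and 2.31 on array 2, and 1.74 and 1.73 on array 3, so the arrays differed by more than the duplicate spots did. Other probes printed around FaPLB did not share its ratio. Over the 118 and 119 non-control spots within 5 rows and 5 columns of each spot, the median log2 ratio ran from -0.15 to 0.13, and on each array 1 neighbour at each position reached the ratio of FaPLB.

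The fitted FaPLB difference was 2.15 ± 0.13 (SE, n = 3 arrays) on the log2 scale, or 4.43-fold, with a 95% interval from 3.36-fold to 5.84-fold. Because a dye term was fitted, array 2 was matched exactly and weighed as much as arrays 1 and 3 together. The SE thus reflects the spread between arrays 1 and 3, moderated across features. In limma with a term for the dye the adjusted p was 0.0599, so FaPLB did not pass the threshold of 0.05, and in that fit 0 of 23382 features passed (0%), although 6759 (28.9%), FaPLB among them, had an unadjusted p under 0.05. At an adjusted p under 0.1, FaPLB was 1 of 1042 features (4.46%) that were higher in FaPRE1-OX. Without the dye term the difference was 2.06 ± 0.15 and the adjusted p in limma was 0.00676. FaPLB was then called, as were 22.6% of the tested features in either direction and 9.79% in the direction of FaPLB, while 0.205% were called and at least 4-fold higher. Fits to 2 arrays had no dye term. Without the third array the difference was 2.22 with an adjusted p in limma of 6.57e-10, in a fit that called 59.6% of all features, and without the first or the second it was 2.07 (adjusted p = 0.0856) or 1.89 (adjusted p = 0.102). Exact permutation tests of FaPLB alone cannot reach 0.05 with 3 samples a group. The exact two-sided permutation test over samples gave p = 0.1 and that of signs over arrays gave p = 0.25, each the smallest value possible.

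Few features exceeded FaPLB. Of the 23382 tested features, 91 had a higher ratio on array 1, 38 on array 2 and 92 on array 3, and 17 (0.0727%) were higher than FaPLB on every array. By the fitted difference 42 features (0.18%) lay above it. Features below background in either group have only a bounded ratio, so these counts can be too low. The middle 90% of tested features ran from -1.25 to 0.72 on the log2 scale, with a median of -0.02. FaPLB thus lay in the upper tail of the distribution on each array.

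**Figure D2:**
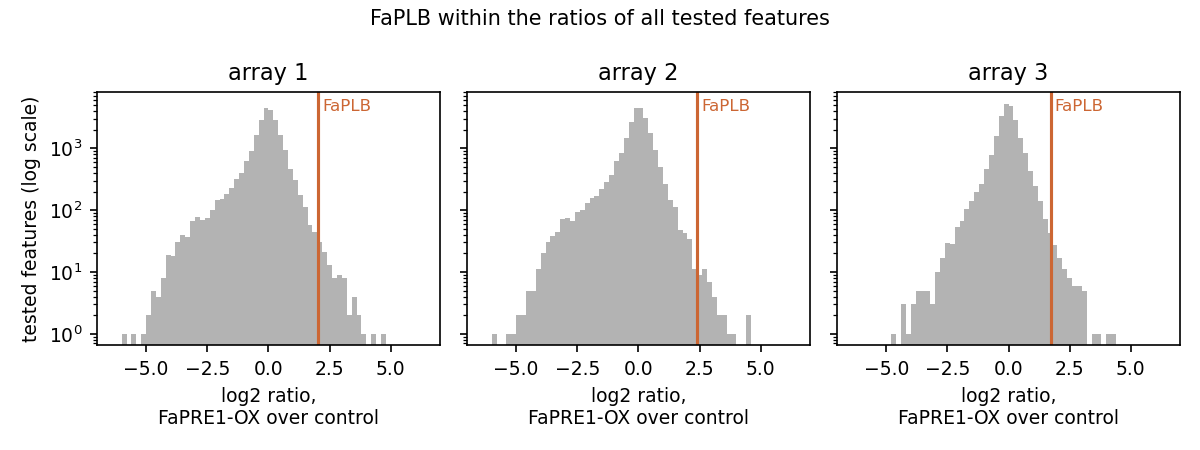
Histograms of the log2 ratio of FaPRE1-OX over control for the 23382 tested features on each array, with a logarithmic count axis and a line at FaPLB. FaPLB lies at 2.04, 2.40 and 1.74, with 91, 38 and 92 features above it.

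In control buds the FaPLB probe was of middle to upper brightness. It was brighter than 67.7%, 65.0% and 67.7% of features in controls 1, 2 and 3, with a mean of 66.8% ± 1.6 (SD, n = 3), and took rank 11359, 12304 and 11328 of about 35115 features. In FaPRE1-OX 1, 2 and 3 it was brighter than 88.0%, 88.8% and 85.2%, with a mean of 87.3% ± 1.9 (SD, n = 3). Each FaPRE1-OX sample therefore placed FaPLB higher than each control did. Among features well above background, it was brighter than 49.98% ± 3.9 (SD, n = 3) in the controls. These ranks describe the brightness of probes and not the amount of transcript, because probes bind their targets unequally.

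Likeness to FaPLB was taken as the Euclidean distance over the 3 log2 ratios, which share these arrays and so describe them alone. The nearest feature was gene26801, which was well above background in all 6 samples and had ratios of 2.17, 2.12 and 1.94, at a distance of 0.37. This gene model has no name in the sources used here. The nearest features with a symbol were FaPRE1 and FaDFR1C, a dihydroflavonol reductase of the flavonoid pathway. FaDFR1C was well above background in all 6 samples, with ratios of 1.46, 1.30 and 2.38 at a distance of 1.41, and was the 184th nearest feature. Only 1 of 3 controls had FaPRE1 well above background, and 0 of 3 had gene23947, the second nearest gene model, so their ratios against dim controls are not measured values and no distance is given for them.

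FaGalur, which encodes a galacturonate reductase that uses a breakdown product of pectin for ascorbate synthesis, differed in the other direction. Controls 1, 2 and 3 had a FaGalur log2 signal of 10.12, 9.99 and 10.09. FaPRE1-OX 1, 2 and 3 had 8.11, 8.05 and 9.35. Of the FaPRE1-OX samples, FaPRE1-OX 3 lay nearest to the controls. The fitted difference was -1.66 ± 0.32 (SE), and the adjusted p in limma was 0.0981, or 0.0315 when the dye term was dropped. Without the third array the difference was -1.98 (adjusted p = 4.09e-10 in limma), again in the fit that called 59.6% of features. Without the first or the second array it was -1.34 (adjusted p = 0.187) or -1.38 (adjusted p = 0.189). Of the list of 3 genes, FaPLB and FaGalur were tested. In the fit with the dye term 0 of them passed, and in the fit lacking it FaPLB rose and FaGalur fell. Of all tested features 0% passed in the first fit, and in the second 9.79% rose and 12.8% fell.

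FaRGL1, the rhamnogalacturonan lyase gene, was not detected as well above background in any of the 6 samples and was not tested. It shared this with 25.0% of all features. Its single probe, FragP00002661, was one of 50 probes printed 11 or 12 times, and the only one of them with a gene symbol, so that each sample gave 12 spot readings. In control 1 the background-subtracted intensity of the 12 spots ran from 4.91 to 33.7 with a median of 16.4. The medians of controls 2 and 3 were 5.84 and 7.35. In FaPRE1-OX 1, 2 and 3 the medians were -0.83, -1.52 and 2.86. The median was thus positive in each control and higher than in each FaPRE1-OX sample, while all of them were small against a local background of 42.5 to 85.5.

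Spots that the array design marks as negative controls were read beside these. For controls 1, 2 and 3 their median background-subtracted intensity was -6.84, -3.92 and -4.83. For FaPRE1-OX 1, 2 and 3 it was -4.09, -6.03 and -4.63, with 290 to 304 spots free of an outlier flag per sample. In each control, 12 of the 12 FaRGL1 spots lay above the 95th percentile of the negative control spots. In FaPRE1-OX 1, 2 and 3 this held for 5, 5 and 8 spots, and the median FaRGL1 spot was brighter than 91.7%, 89.1% and 97.7% of the negative control spots. In control buds every FaRGL1 spot thus cleared the negative controls by this measure, whereas in FaPRE1-OX buds part of the spots lay within their range. The FaRGL1 counts include spots with an outlier flag, and other dim probes were not counted in this way.

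**Figure D3:**
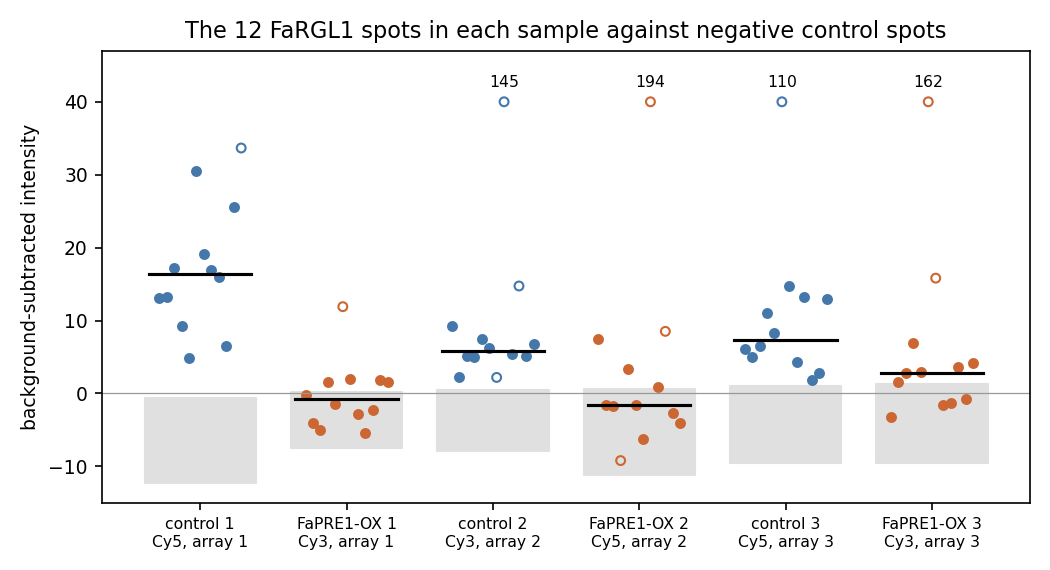
Background-subtracted intensity of the 12 FaRGL1 spots in each sample, ordered by array, with open circles for spots flagged as outliers or non-uniform, black lines for medians and grey boxes for the 5th to 95th percentile of negative control spots. Readings above 40 are drawn at 40 with their value, and the medians are 16.4, 5.84 and 7.35 in controls against -0.83, -1.52 and 2.86 in FaPRE1-OX.

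A less strict flag of the scanner software, which calls a spot positive and significant against its background, separated the groups. It was set for 12, 10 and 10 of the 12 FaRGL1 spots in controls 1, 2 and 3 and for 1, 3 and 4 spots in FaPRE1-OX 1, 2 and 3. With the call required of at least 50% of the unflagged spots, FaRGL1 was called in 3 of 3 controls and 0 of 3 FaPRE1-OX samples. Among the 8780 features that were well above background in no sample, 0.991% showed this pattern, 0.296% the opposite one, and 10.9% were positive and significant in 6 of 6 samples. Of the 50 probes printed 11 or 12 times, 19 were well above background in no sample, and in 2 of these, FaRGL1 included, the control median exceeded the FaPRE1-OX median on all 3 arrays, against 1 in the other direction.

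For FaRGL1 the control was higher at most spots in both dye orientations, with the dyes swapped on array 2 only. After each channel's negative control median was subtracted, the control reading exceeded the FaPRE1-OX reading at 12 of 12 spots on array 1 and 9 of 12 on array 3, with the control in Cy5. It did so at 10 of 12 spots on array 2, with the control in Cy3. The difference of the medians was 20.0, 5.24 and 4.69 intensity units on arrays 1, 2 and 3, so it was largest on array 1. These units were not normalized between dyes, and Cy5 was the brighter channel over all spots. The sizes therefore mix dye with group, and a part of the dye was not tested. The spots of 1 array are repeat readings of the same pair of samples, so the comparison rests on 3 pairs. The exact two-sided permutation test of the 6 uncorrected medians gave p = 0.1 and that of signs over arrays gave p = 0.25, again the smallest values possible. No fold is given for FaRGL1, since neither group was well above background.

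Single spots departed from this level. On array 2 the FaRGL1 spot at row 161, column 52 had a background-subtracted intensity of 145 in the control and 194 in FaPRE1-OX. On array 3 the spot at row 150, column 43 had 110.0 in the control and 162 in FaPRE1-OX. Each was bright in both dyes on 1 array only and was flagged as an outlier among the 12 spots, so it was left out of the detection calls. In control 1, 3 of the 12 spots were well above background, 2 of which were free of an outlier flag. Controls 2 and 3 and FaPRE1-OX 2 and 3 each had 1 such spot, which carried an outlier flag, and FaPRE1-OX 1 had 0. With a call from at least 1 spot without a flag, FaRGL1 would be detected in 1 of 3 controls and 0 of 3 FaPRE1-OX samples.

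The FaPLB difference kept its direction in all 16 processing alternatives, from 1.89 to 2.59 on the log2 scale, and its adjusted p in limma was under 0.05 in 9 of them.

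**Figure D4:**
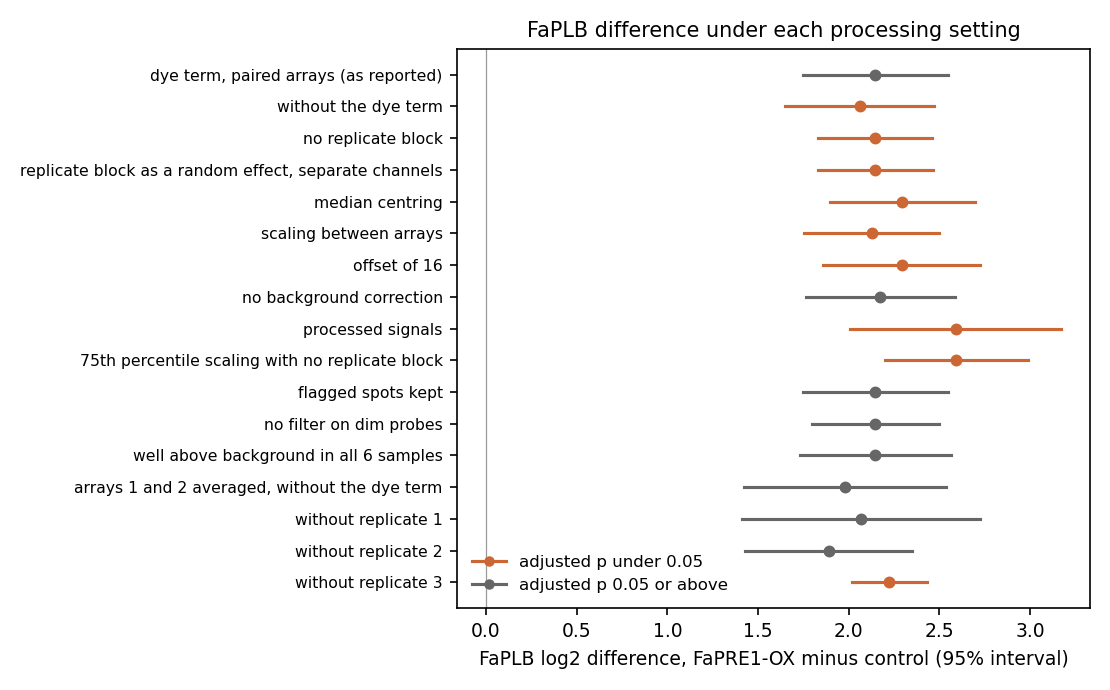
FaPLB log2 difference of FaPRE1-OX minus control (points) with its 95% interval (lines) in the reported fit and 16 processing alternatives, coloured by whether the adjusted p was under 0.05. All points lie between 1.89 and 2.59, and 9 alternatives have an adjusted p under 0.05.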

How the data were processed

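The authors deposited scanner output of 3 two-colour arrays of 60-mer probes, with spot intensity, background intensity and processed intensity per channel, written per the file headers by Agilent Feature Extraction 10.7.3.1. Background-subtracted intensities are that software's own. Sample, dye and array were taken from the labels. Arrays 1 and 3 had the control in Cy5 and array 2 had it in Cy3. Titles of FaPRE1-OX samples carry the token PRE3, and the group follows the other labels.

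In R 4.3.3 with limma 3.58.1, median spot intensities were corrected by normexp (offset 50), which shrinks ratios of dim probes, and log2 ratios were then loess-normalized array by array, giving control spots a weight of 0. Spots flagged non-uniform or as outliers were dropped. Values were averaged over the spots of a probe, then over the probes of a feature. Levels are log2 signals after quantile normalization of average intensity. A feature was detected in a sample if at least 50% of a probe's unflagged spots were well above background, and tested if detected in 3 of 6 samples, which left 23382. Ratios of FaPRE1-OX over control were fitted by lmFit and eBayes with a term for the dye, leaving 1 residual degree of freedom. It came from arrays 1 and 3, which shared a dye orientation. Two-sided p-values were adjusted by Benjamini-Hochberg over all tested features. Fits were checked on simulated data.

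The labels place same-numbered samples on one array. Their deviations from group means correlated at 0.168, 0.178 and 0.135, against -0.196 to 0.0727 between numbers. Deviations from a group mean cancel out, so these sets of values are not independent and do not test the pairing. With terms for group and dye, the pooled correlation between the channels of an array was -0.00883. Arrays were 1 slide and 1 scan, so no slide or scan term was possible.

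Members and lists were chosen with earlier results of these data known. Named genes were the members, FaPRE1, symbols on the wall list, and the 2 symbols and 2 gene models nearest to FaPLB. The 2 member symbols were absent from the reference gene table used (0 matched). Probe sequences and positions in the genome were not used here. The number of arrays limits the precision.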

Additional observations from a re-analysis of the deposited data

How the results depend on the processing

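FaPLB was higher in FaPRE1-OX in all 16 alternatives. Its adjusted p in limma fell under 0.05 without the dye term (log2 difference 2.06), when no replicate block was used (2.15), with the replicate block as a random effect on separate channels (2.15), with median centring (2.30), scaling between arrays (2.13), an offset of 16 (2.29), processed signals (2.59) and 75th percentile scaling with no replicate block (2.59). Leaving out each replicate, always without the dye term, gave 1.89 to 2.22, with an adjusted p under 0.05 only without replicate 3. In place of 0 genes past the threshold, 4235 passed with no replicate block, 5279 in the fit lacking a dye term, 4176 with the block as a random effect, 1003 with median centring, 402 with scaling between arrays, 889 with an offset of 16 and 1407 with processed signals. Scaling to the 75th percentile, again unblocked, gave 4681 (2448 higher and 2233 lower, against 1618 and 2617 for the unblocked fit alone). Leaving out a replicate gave 0 to 13941 genes, the highest without replicate 3. The count was 0 in the other alternatives, and 4443 to 14798 features had an unadjusted p under 0.05 over all settings. Dropping the dye term raises the residual degrees of freedom from 1 to 2. The cause of these changes in count, with or without the dye term, was not tested. FaRGL1 was called in 3 samples, all controls, by the positive and significant flag and in 1 by a call from at least 1 spot, chosen after seeing the data. FaGalur was lower in each of its alternatives (-1.98 to -1.34), also chosen after seeing the data. The mean FaPLB percentile in controls was 49.98 among features well above background. The planned estimate of the correlation between channels did not recover simulated correlations, and a pooled estimate, chosen after seeing the data, replaced it and gave -0.00883. Signal over background limits FaRGL1, for which no ratio could be measured.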
